A study of Rattus norvegicus with 6 samples.

Results

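Transcripts of 8 genes of the hypoxia response and of glucose use were followed in rat bone marrow mesenchymal stromal cells cultured with or without a hydrogel: Hif1a, Vegfa, Slc2a1, Hk2, Gapdh, Eno1, Pkm and Ldha. They were chosen as 8 Ensembl identifiers of the 30452 in the count table, for their known roles and with earlier results of these data known. The cells are wild-type adherent marrow cells that can form bone, cartilage and fat, taken from osteogenic differentiation cultures. Control cultures were left blank (n = 3 libraries), and the others were co-cultured with the AAT-ZCG hydrogel (n = 3 libraries), an enzyme-linked material made for bone defects in diabetes. The composition of the hydrogel, the time in culture, the oxygen level and the glucose level are not given in the sources used here. All 8 genes passed the filter on low counts, which left 14715 genes for testing.

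The transcription factor subunit encoded by Hif1a is made continuously and is degraded while oxygen is plentiful. When oxygen is short the protein persists, enters the nucleus and switches on genes for blood vessel growth, glucose uptake and glycolysis, so much of its control lies outside its own transcript level. Vegfa encodes the main secreted growth factor for endothelial cells, and in bone it links vessel growth to bone formation. Slc2a1 encodes the glucose transporter GLUT1, and Hk2, Gapdh, Eno1, Pkm and Ldha encode enzymes that carry glucose to pyruvate and lactate, a route on which marrow stromal cells and osteoblasts draw heavily.

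Library totals ranged from 30601703 to 93728651 counts, with 1 deep library in each group (control 2 and hydrogel 2). The members held from 527 counts (Hk2 in hydrogel 3) to 77642 counts (Gapdh in control 2) per library, which puts the counting error between 0.359 and 4.36% of a value. The coefficient of variation between libraries was of that size for Hif1a in controls (1.24%) and Hk2 with hydrogel (2.93%), and it exceeded the counting error for the other members and groups. No label says that libraries came from separate cultures or animals, so the p-values reflect the spread among these libraries alone, and that spread may be technical. The files pair no identifier with a gene symbol, and the RefSeq table matched 0 of the 30452 identifiers. The labelled cell type could therefore not be checked against its markers here, and other genes of these pathways are not reported. In bulk RNA, a change in the kinds of cells present and a change in RNA per cell cannot be told apart.

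The symbols of the 8 identifiers come from the assignment that defined the gene set, and gene length was worked out to set beside them. Counts, library totals and FPKM (counts scaled to gene length and library total) together imply the length that was counted for each gene. That length was the same in all 6 libraries to within a relative 4.36e-11. It came to 3700 bp for Hif1a (ENSRNOG00000008292), 3546 bp for Vegfa (ENSRNOG00000019598) and 2573 bp for Slc2a1 (ENSRNOG00000007284). Among the enzymes it was 3633 bp for Hk2 (ENSRNOG00000006116), 3136 bp for Gapdh (ENSRNOG00000018630) and 1779 bp for Eno1 (ENSRNOG00000017895). Pkm (ENSRNOG00000011329) had 2957 bp and Ldha (ENSRNOG00000013009) 2124 bp. Each length was shorter than the span of the gene of that symbol in RefSeq (GRCr8 assembly). The longest length, 3700 bp, was below even the shortest span, 4845 bp. Any exchange of symbols among the 8 would therefore have passed, and the comparison cannot show that the assignments are right. The span was 4.33 to 13.5 times the counted length in the other members but 1.54 times in Gapdh, a compact gene of 4845 bp. A counted length that takes in more than 1 transcript form lowers a gene's FPKM, which affects the order of genes by level but no comparison between groups.

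The promoters are shown because hypoxia-inducible factors bind a short core sequence, and the members differed in whether their promoters hold it. The 250 bases before the transcription start were read from RefSeq (GRCr8) for all 8 members and searched on both strands for ACGTG and GCGTG, the core of the hypoxia response element. Capitals mark the matches below, including those that read as CACGT or CACGC because they lie on the other strand, and CACGTG counts as a match on each strand. Ldha (+ strand, chr1:106507842-106508091) held 4 matches, Slc2a1 (+ strand, chr5:138002272-138002521) 4 and Hif1a (+ strand, chr6:98359648-98359897) 3. Neither Pkm (+ strand, chr8:68953385-68953634) nor Hk2 (- strand, chr4:116841276-116841525) held one in this window.
Ldha: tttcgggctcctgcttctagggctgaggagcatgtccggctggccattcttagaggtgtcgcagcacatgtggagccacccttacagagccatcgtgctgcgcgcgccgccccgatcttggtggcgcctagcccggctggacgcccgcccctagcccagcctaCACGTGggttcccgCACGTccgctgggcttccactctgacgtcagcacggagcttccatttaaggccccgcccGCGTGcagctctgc
Slc2a1: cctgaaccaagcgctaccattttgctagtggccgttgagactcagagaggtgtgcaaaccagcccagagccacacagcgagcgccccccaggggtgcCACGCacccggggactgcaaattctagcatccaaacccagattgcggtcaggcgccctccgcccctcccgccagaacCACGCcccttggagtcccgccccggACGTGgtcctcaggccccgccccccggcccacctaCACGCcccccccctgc
Hif1a: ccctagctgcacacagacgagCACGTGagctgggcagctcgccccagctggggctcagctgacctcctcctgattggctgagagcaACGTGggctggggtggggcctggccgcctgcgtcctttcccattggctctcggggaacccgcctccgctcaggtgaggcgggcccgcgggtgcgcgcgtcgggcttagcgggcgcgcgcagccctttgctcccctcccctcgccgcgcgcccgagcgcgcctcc
Pkm: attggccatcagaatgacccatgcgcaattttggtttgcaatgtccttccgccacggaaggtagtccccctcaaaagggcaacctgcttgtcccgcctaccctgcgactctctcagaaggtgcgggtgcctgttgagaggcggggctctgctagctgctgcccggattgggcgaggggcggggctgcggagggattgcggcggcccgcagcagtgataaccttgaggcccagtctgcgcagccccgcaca
Hk2: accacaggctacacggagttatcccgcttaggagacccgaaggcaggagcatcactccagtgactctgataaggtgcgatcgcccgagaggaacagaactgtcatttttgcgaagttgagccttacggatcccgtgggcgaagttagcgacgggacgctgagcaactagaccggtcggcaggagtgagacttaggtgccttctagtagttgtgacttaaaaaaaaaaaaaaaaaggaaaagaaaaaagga
Of the other members, Gapdh held 3 matches, Eno1 held 1 in each of its windows and Vegfa held none in its own pair of windows. In all, 6 of the members' 10 windows held a match, against 36.7% of the 33469 windows of all genes. Ldha, Slc2a1, Hif1a and Gapdh held more than 1, where 16% of all windows held 2 or more. By gene, 5 of the 8 members held a match in any window, a share that was not worked out for all genes. The core is short and rich in G and C, and the members' windows ran from 49.6 to 73.6% G and C. A match is a description of the letters and not evidence of binding, and a missing match says nothing about sites farther away.

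Per gene length, the late glycolytic enzymes were the most abundant members by far. Eno1 (enolase) stood at 290.3 ± 6.72 FPKM in controls, Gapdh (glyceraldehyde phosphate dehydrogenase) at 255 ± 9.28 and Pkm (pyruvate kinase) at 233 ± 7.58 (SD, n = 3). Ldha, whose product forms lactate from pyruvate, followed at 135 ± 0.90 FPKM. Vegfa and Hif1a lay close together at 47.8 ± 2.89 and 46.6 ± 0.91 FPKM, and their control libraries overlapped, so these neighbours could not be ordered. The first steps of glucose use had the lowest levels of the set, with Slc2a1 at 12.9 ± 0.67 FPKM and Hk2 (hexokinase), which traps glucose in the cell, at 6.35 ± 0.68 FPKM. All other neighbours in the control order were separated by their library ranges. Mean FPKM over the 6 libraries placed Eno1 at rank 187 and Gapdh at rank 221 of the 14715 tested genes, with Pkm between them at rank 200. Hk2 ranked 7388, near the middle.

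**Figure D1:**
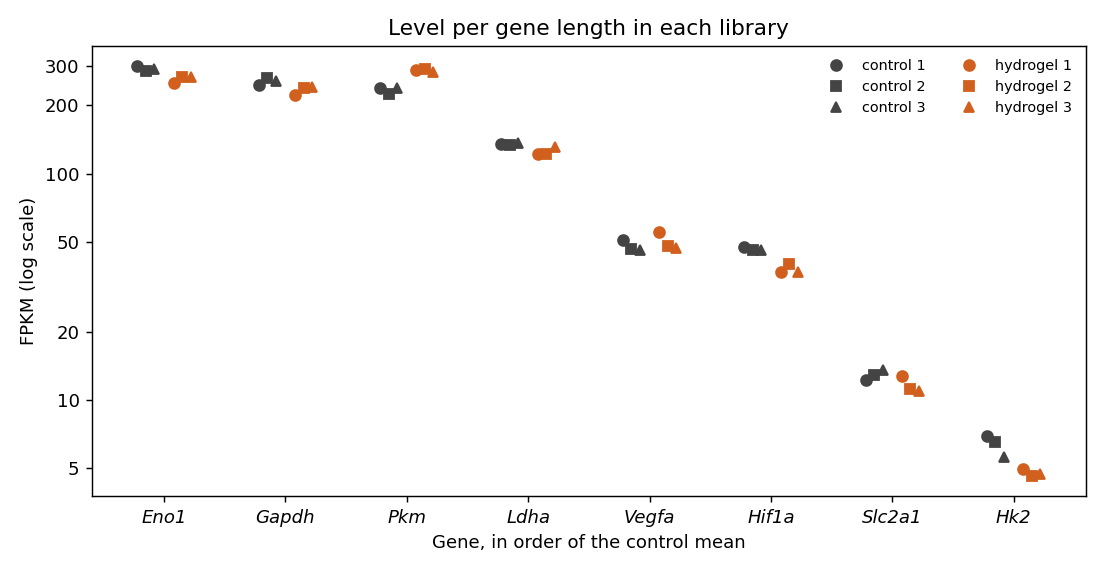
FPKM of the 8 genes in each library on a log axis, in the order of the control means. Points are single libraries, grey for control and orange for hydrogel. Eno1, Gapdh and Pkm lie between 221 and 297 FPKM in all libraries, while Hk2 lies between 4.64 and 6.94 FPKM.

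With hydrogel, Pkm moved ahead of Eno1 and Gapdh to the top of this order, at 286 ± 3.33 FPKM against 262 ± 8.96 for Eno1 and 233 ± 10.3 for Gapdh (SD, n = 3). The library ranges of these 3 genes did not overlap within the group. In both groups this order rests on the counted lengths, 3136 bp for Gapdh, 1779 bp for Eno1 and 2957 bp for Pkm. A shorter counted length would raise the FPKM of Gapdh. Vegfa and Hif1a, which overlapped in controls, were apart with hydrogel, at 49.96 ± 4.55 and 37.9 ± 1.86 FPKM. Ldha, Slc2a1 and Hk2 kept their ranks, at 125 ± 5.15, 11.7 ± 0.96 and 4.78 ± 0.16 FPKM.

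The comparison between the groups asks how the cultures with hydrogel differed from blank cultures in these transcripts. Hif1a, Hk2 and Eno1 fell and Pkm rose, all by less than 2-fold, while Vegfa, Slc2a1, Gapdh and Ldha did not pass the test. The call of Eno1 was the least stable of these, lost in 8 of 20 alternative analyses. Each gene was tested with edgeR's quasi-likelihood test across all 14715 genes, with Benjamini-Hochberg adjusted p-values, on counts scaled by TMM, a scaling that balances most genes between libraries. So 4 of 8 members were called, 3 lower and 1 higher. Of all genes tested, 34.5% were called (17.1% lower and 17.5% higher). Calls were more common among abundant genes, so the members were also set beside genes of like abundance. Of the 6 members with a mean of 100 to 1000 CPM (library-scaled counts, in parts of a library of 1000000), 3 were called, where 57.6% of the 1643 genes of that abundance were. Of the 2 members of 10 to 100 CPM (Slc2a1 and Hk2), 1 was called, where 38.1% of 7005 such genes were. The members' share of calls was thus near the background. For 5 of the 8 the CPM ranges of control and hydrogel libraries were apart, beside 47.3% of all tested genes. The median log2 fold change was -0.11 over the members and 0.0021 over all genes tested. No member changed over 2-fold, which 5.73% of tested genes did.

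**Figure D2:**
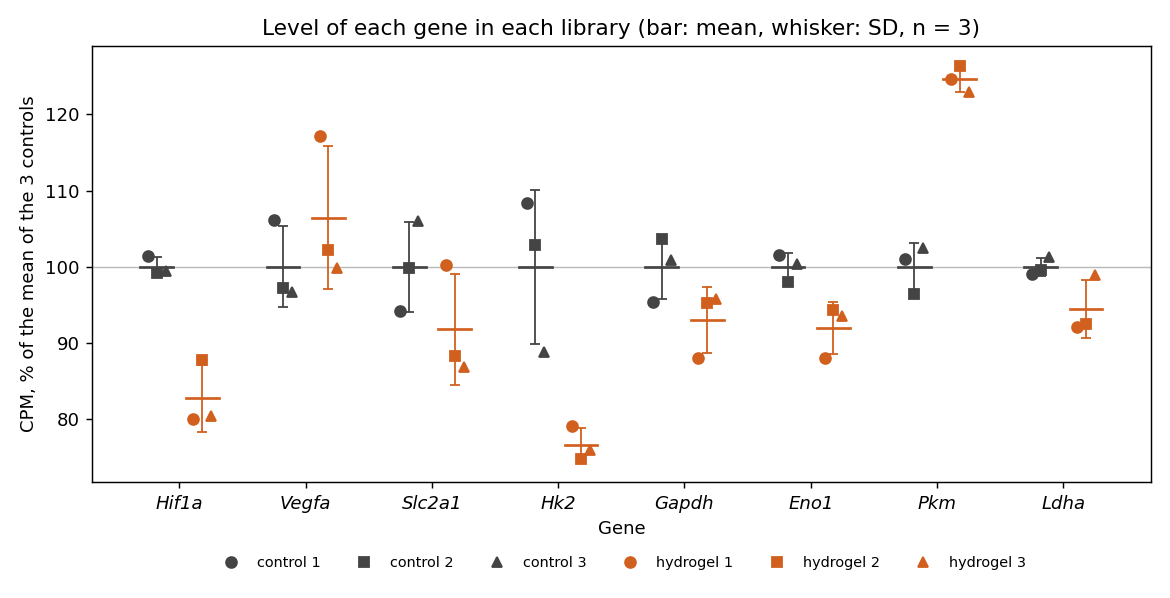
TMM-scaled CPM of each gene in each library as a percent of the mean of the 3 controls. Points are libraries, bars are means and whiskers are SD (n = 3). The hydrogel libraries lie at 123 to 126% for Pkm, 74.7 to 79.1% for Hk2 and 80.0 to 87.8% for Hif1a, and those of Vegfa, Slc2a1 and Gapdh overlap their controls.

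Hif1a, the regulator of the set, fell by 17.2%. It measured 173, 169 and 169.9 CPM in control libraries 1, 2 and 3, and 137, 149.97 and 137 CPM in hydrogel libraries 1, 2 and 3. The controls lay within 4 CPM of one another and all hydrogel libraries were below them, with the deep hydrogel library 2 the least lowered. The fold change was 0.83 (95% interval 0.77 to 0.89), or -0.27 in log2 (SE 0.048, edgeR adjusted p = 3.81e-04). The fall was kept without any 1 library, at log2 fold changes from -0.32 to -0.25. Of all tested genes, 18.2% had a lower log2 fold change, so the fall was moderate among the genes of these cultures.

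Vegfa, the secreted angiogenic factor that hypoxia-inducible factors are known to induce, did not pass the test. Its libraries read 178, 163 and 162 CPM in controls and 197, 172 and 168 CPM with hydrogel. The groups overlapped, since control 1 lay above hydrogel 2 and 3, and hydrogel 1 stood above the rest. The fold change was 1.06 (95% interval 0.97 to 1.16; log2 0.090, SE 0.060, edgeR adjusted p = 0.268), an interval that holds changes of either sign. Without hydrogel library 1 the log2 fold change was 0.014 (adjusted p = 0.871).

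Of the genes of the first steps of glucose use, Hk2 fell and Slc2a1 did not pass the test, and the 2 genes were not tested against each other. Slc2a1 read 31.0, 32.9 and 34.9 CPM in controls and 33.0, 29.1 and 28.6 CPM with hydrogel. Hydrogel libraries 2 and 3 were below every control, but hydrogel 1 lay within the control range. The fold change was 0.92 (95% interval 0.82 to 1.02; log2 -0.13, SE 0.073, edgeR adjusted p = 0.197). Without hydrogel library 1 it was -0.19 in log2 (adjusted p = 0.0530). Hk2 had 24.8, 23.5 and 20.3 CPM in controls and 18.1, 17.1 and 17.4 CPM with hydrogel. Its controls were the more spread, with a coefficient of variation of 10.1% against 2.93% with hydrogel, and the groups did not overlap. Hk2 had the largest fall of the 8, at 0.76-fold (95% interval 0.67 to 0.87; log2 -0.39, SE 0.086, edgeR adjusted p = 0.00225). In libraries 1 and 3 of each group alone, leaving out the deep ones, it was -0.35 in log2 and was not called (adjusted p = 0.0594).

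Of the enzymes of the later steps, Eno1 fell slightly, and Gapdh and Ldha had means below the controls that did not pass the test. Gapdh measured 757, 823 and 800.2 CPM in controls and 698, 756 and 760.2 CPM with hydrogel. Control 1 lay below hydrogel 3, so the groups overlapped in CPM. In FPKM, which has no TMM factor, they were apart, at 245.6 to 264.1 in controls and 221.4 to 240.4 with hydrogel. The fold change of 0.93 (95% interval 0.87 to 0.996, log2 -0.10, SE 0.046) was not called (edgeR adjusted p = 0.0945). That interval lies below 1 because it is for this gene alone, while the call is adjusted over all genes tested. On library totals alone Gapdh was called (log2 -0.13, adjusted p = 0.0310), as it was with no filter on low counts (-0.11, 0.0477) and with a replicate block on the sample numbers (-0.10, 0.0444). Leaving out 1 library gave no call, with log2 values from -0.14 to -0.068, the last without hydrogel 1 (adjusted p = 0.235), and -0.078 without control 2 (adjusted p = 0.318). Eno1 measured 519.98, 502 and 514 CPM in controls and 451, 483 and 479 CPM with hydrogel. Its groups did not overlap, and the fold change was 0.92 (95% interval 0.86 to 0.98; log2 -0.12, SE 0.043, edgeR adjusted p = 0.0397). This call did not hold without control 1, 2 or 3 or without hydrogel 1 or 3, where adjusted p ran from 0.0537 to 0.106. Ldha read 282, 283 and 288 CPM in controls and 262, 263 and 281 CPM with hydrogel. All 3 hydrogel libraries were below the controls, but hydrogel 3 nearly reached control 1, and the fold change of 0.94 (95% interval 0.89 to 1.01; log2 -0.082, SE 0.045) was not called (edgeR adjusted p = 0.172).

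Pkm, which encodes the pyruvate kinase of the last step of glycolysis, was the only one of the 8 called higher with hydrogel. It went from 691, 659 and 701 CPM in controls to 852, 864 and 841 CPM with hydrogel. The hydrogel libraries agreed closely, with a coefficient of variation of 1.37%, and the lowest of them was well above the highest control. The fold change was 1.25 (95% interval 1.17 to 1.32; log2 0.32, SE 0.041, edgeR adjusted p = 1.65e-05). Pkm was higher in 3 of 3 hydrogel libraries and stayed called in all 20 alternative analyses. In these counts the alternative splice forms of the gene are added together, so the rise cannot be assigned to a form.

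**Figure D3:**
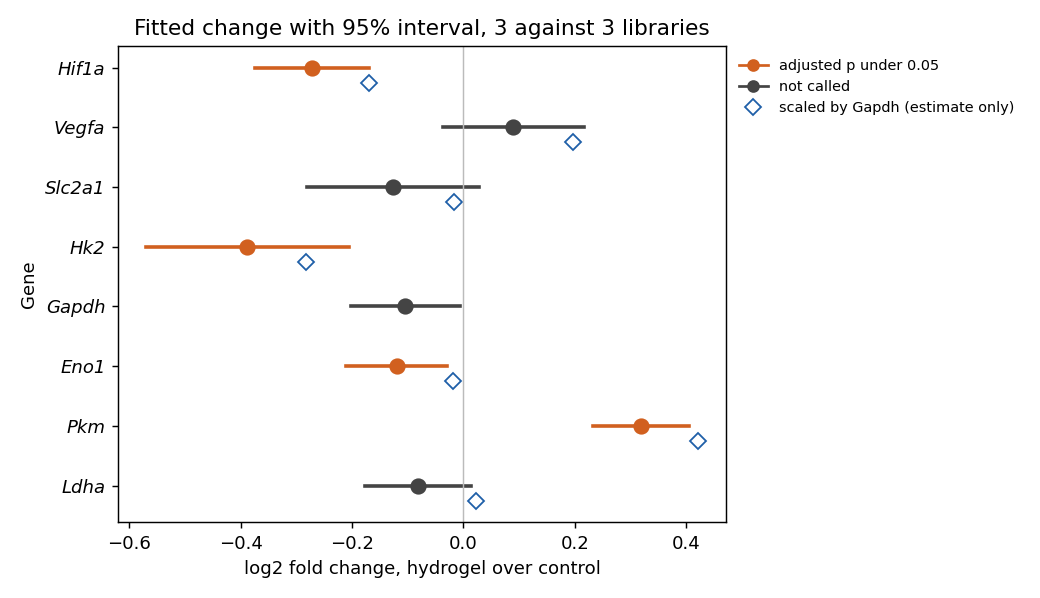
Log2 fold change of each gene, hydrogel over control, with its 95% interval (circles and lines, orange where the adjusted p was under 0.05). The intervals are per gene and are not adjusted over genes. Open diamonds give the estimate after scaling each library by its Gapdh count. Pkm lies at 0.32 and Hk2 at -0.39, and scaling by Gapdh moves every estimate up, Ldha to the other side of 0.

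Summed over the glucose transporter and the enzymes, the share of the library hardly differed between groups. Slc2a1, Hk2, Gapdh, Eno1, Pkm and Ldha together took 0.235% ± 0.0013 of a control library's counts and 0.236% ± 0.0048 of a hydrogel library's (SD, n = 3). Single libraries ran from 0.234 to 0.236% in controls and from 0.230 to 0.239% with hydrogel, so the groups overlapped. Without Pkm, the other 5 took 0.166% ± 0.0017 in controls and 0.151% ± 0.0052 with hydrogel, and the groups did not overlap. These shares are of library totals without TMM, a scale that shifted the median log2 fold change of all genes by -0.026. How often sums of other genes lie apart was not worked out. No test was made on these sums, since Pkm was set aside after its values were seen.

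Gapdh is often used as a reference in quantitative PCR, so each member was also read against it. Pkm went from 0.91, 0.80 and 0.88 counts per Gapdh count in controls to 1.22, 1.14 and 1.11 with hydrogel, a difference of 1.34-fold. Hif1a went from 0.229, 0.206 and 0.212 to 0.196, 0.198 and 0.181 per Gapdh count, or 0.89-fold. For these 2 genes the groups did not overlap, with an exact two-sided permutation p of 0.1, the smallest that 3 against 3 libraries allow, and 0.35 after adjustment over 7 ratios. The ratio of Hk2 to Gapdh overlapped between groups (0.83-fold, exact permutation p = 0.2), as did those of Vegfa (1.14-fold, p = 0.3), Slc2a1 (0.99-fold, p = 0.9), Eno1 (0.99-fold, p = 0.8) and Ldha (1.02-fold, p = 0.6). Groups that lay apart were common in these data, since 47.3% of the 14715 tested genes had CPM that did not overlap. That share was not worked out for ratios to Gapdh, so the 2 of 7 ratios have no background of their own. Scaling every library by its Gapdh count raised the median log2 fold change over the whole table by 0.10, to 0.11. On that scale Pkm rose by 0.42 and Hk2 was at -0.28 (edgeR adjusted p = 0.0436), both still called. Hif1a was at -0.17 (edgeR adjusted p = 0.0640), no longer called, and Ldha was on the other side of 0 at 0.022.

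**Figure D4:**
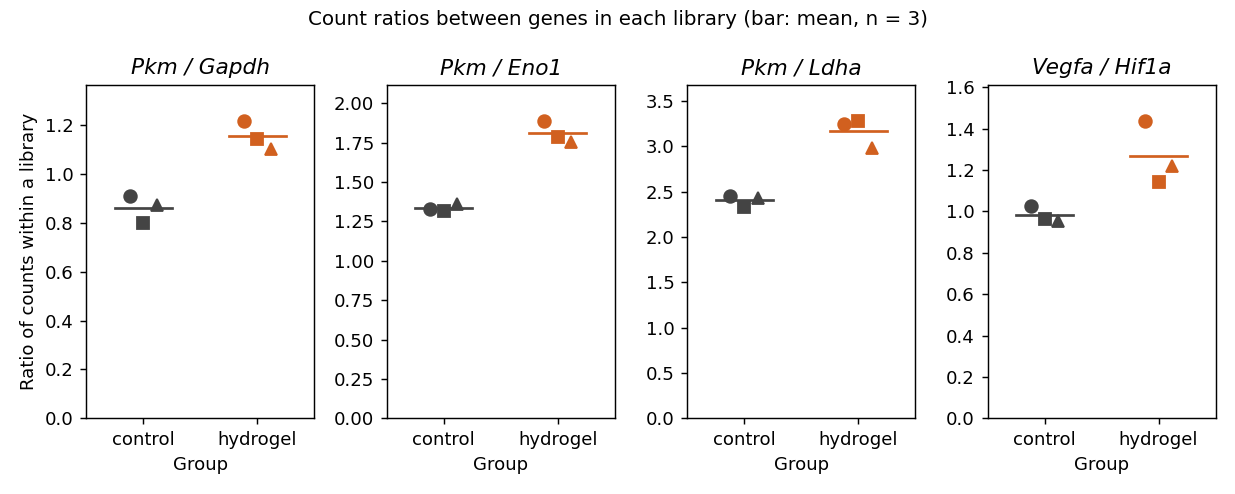
Counts of 1 gene divided by those of another in the same library, for Pkm over Gapdh, Eno1 and Ldha and for Vegfa over Hif1a. Points are libraries and bars are means (n = 3), on axes that start at 0. The hydrogel libraries lie above all controls in each panel, as in Pkm over Eno1 with 1.76 to 1.89 against 1.31 to 1.36. The ratios over Eno1, Ldha and Hif1a were chosen after their values were seen, so their separation follows in part from that choice.

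The patterns of the members over the 6 libraries, group difference included, were also set beside one another. Likeness was taken as the root mean square difference of log2 CPM, each gene centred on its own mean, so that 0 is the same pattern. Eno1 and Ldha were the most alike pair at 0.043, followed by Gapdh with Ldha at 0.048 and Gapdh with Eno1 at 0.051. Hif1a was nearest to Eno1 (0.084) and then to Gapdh (0.11). Vegfa had no close member, with Ldha the nearest at 0.14, and lay at 0.21 from Hif1a. Hk2 and Pkm were the least alike pair at 0.36. The measure includes the group difference, so members with like fold changes come out alike, and it does not show that genes varied together. All of these values share the same libraries and scaling. Among the 8728 non-member genes of at least 10 CPM, the pattern most like that of Pkm was that of ENSRNOG00000009536 (0.014), at 27.3 CPM in controls and 34.1 with hydrogel. Next was ENSRNOG00000015916 (0.023), at 10.6 and 12.9 CPM. Most like Hk2 were ENSRNOG00000037563 (0.028), at 35.5 and 26.9 CPM, and ENSRNOG00000001620 (0.039), at 11.9 and 8.99 CPM. These are means of 3 libraries. The 4 genes were picked for a pattern that includes the group difference of Pkm or Hk2, so their own changes are a description with no test.

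Beside the promoter sequences, called and uncalled genes stood both among the members with a match and among those without. Of the 5 members with a match, Hif1a and Eno1 fell, and Slc2a1, Gapdh and Ldha were not called. Of the 3 without one, Hk2 fell, Pkm rose and Vegfa was not called. With 8 genes this is a description, and no test was made.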

How the data were processed

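Transcripts of 6 libraries were measured by RNA sequencing, from TRIzol RNA and a VAHTS Universal V6 kit, per the labels' protocols. Per the file headers, the authors deposited raw counts per gene, with no normalization, and FPKM in 1 file per library. Aligner, counting tool, strand and handling of reads that match several places are not given in the sources used here. Glycolytic enzymes have processed copies elsewhere in the genome, so reads of Gapdh, Eno1, Pkm and Ldha may be split or shared with them. GRCm38 and mm10, builds of the mouse genome, stand in the submitters' processing notes beside rat identifiers, so no coordinates of the counts are given. RefSeq promoters are on GRCr8.

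Groups followed the sample titles. Counts were tested with edgeR 4.0.16 in R 4.3.3 (filterByExpr, TMM, quasi-likelihood F test on group), with Benjamini-Hochberg adjustment over all genes and a threshold of 0.05. SE was derived from the F statistic. Log2 CPM used a prior count of 2. Ratios to Gapdh used exact two-sided permutation tests over libraries. Library pairs within a group differed beyond counting noise (chi-square per degree of freedom 6.49 to 18.0), so none was taken for a repeat deposit of another. This does not show that the cultures were separate. Same-numbered libraries' deviations correlated at 0.013 to 0.051, so they were not treated as pairs. Named genes are the 8 members plus the 2 genes most like the called members with the largest rise and fall. Members and lists were chosen with earlier results of these data known. Alternatives were DESeq2 1.42.0, limma 3.58.1 on log2 FPKM (pseudocounts 1 and 0.1), other scalings and filters, a robust fit, thinning, a replicate block, libraries 1 and 3 alone, and leaving out each library. Lists of other pathway genes and cell type markers need gene names and were not analysed here.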

Additional observations from a re-analysis of the deposited data

How the results depend on the processing

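The alternatives gave 20 values for each gene and 19 for Gapdh. Pkm kept its direction and call in 20 of 20, at log2 fold changes from 0.28 to 0.42. Hif1a and Hk2 kept theirs in 19 of 20. Eno1 was the least stable, lower in 20 of 20 but still called in only 12, with its call lost in 8. Gapdh stayed uncalled in 16 of 19 and was called in 3. Vegfa and Slc2a1 stayed uncalled in the same direction in 20 of 20. Their adjusted p ran from 0.0798 to 0.871 for Vegfa and from 0.0530 to 0.915 for Slc2a1. Scaling by Gapdh, which divides out any change of Gapdh itself, gave -0.17 for Hif1a and -0.018 for Eno1, neither called. It turned Ldha from -0.082 to 0.022 (adjusted p = 0.834). It left 2 of 7 members called, Pkm at 0.42 and Hk2 at -0.28 (edgeR adjusted p = 0.0436). Of 14714 genes tested, scaling by Gapdh called 4640 (3385 higher and 1255 lower), against 2570 higher and 2509 lower with TMM. Libraries 1 and 3 of each group alone, which leave fewer samples, called 2 of 8 members and 3405 of 14707 genes tested. Hk2 at -0.35 and Eno1 at -0.15 were uncalled there. Upper-quartile scaling gave Eno1 -0.11 (adjusted p = 0.0545), uncalled. Gapdh was called on library totals alone (-0.13), with no low-count filter (-0.11) and with the replicate block (-0.10, adjusted p = 0.0444), and the cause was not tested. The replicate block called 5 of 8 members and 5246 genes in all, against 5079, and changed no other member's call. Every control library's deviations correlated most with those of the same-numbered hydrogel library, at 0.051 or less, a hint from the data and not the design. Leaving out 1 library gave 3 to 4 called members and 3975 to 4695 called genes, with Eno1 from -0.14 to -0.092. Against the summed counts of Eno1, Pkm and Ldha in place of Gapdh, the log2 differences were -0.38 for Hif1a, -0.018 for Vegfa, -0.23 for Slc2a1, -0.49 for Hk2, -0.23 for Eno1, 0.21 for Pkm and -0.19 for Ldha. Pkm is part of that sum, so its rise lowers the other ratios by construction. Each member held at least 527 counts in every library.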

Other observations

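Ratios between pairs of members within a library, chosen after their values were seen, need no scaling between libraries. Pkm stood at 2.45, 2.33 and 2.43 counts per Ldha count in controls and at 3.25, 3.29 and 2.99 with hydrogel. This count ratio differed by 1.32-fold, while Ldha itself was not called. Pyruvate kinase makes the pyruvate that lactate dehydrogenase turns into lactate, but a ratio of transcripts does not measure that step. Against Eno1, the enzyme one step earlier, Pkm went from 1.34 ± 0.025 to 1.81 ± 0.070 (SD, n = 3), or 1.36-fold. Vegfa went from 1.03, 0.96 and 0.96 counts per Hif1a count to 1.44, 1.14 and 1.22, or 1.29-fold, with hydrogel 1 the highest. The groups did not overlap in these 3 ratios, which follows in part from how they were picked, so no test is given.

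Hydrogel library 1 was the lowest of its group for Hif1a, Gapdh, Eno1 and Ldha, at 80.0, 88.0, 88.1 and 92.1% of the control mean, and the highest for Vegfa, Slc2a1 and Hk2, at 117, 100.2 and 79.1%. Without it the Vegfa to Hif1a contrast rests on hydrogel ratios of 1.14 and 1.22, still above the highest control at 1.03. The deep hydrogel library 2 had the highest Hif1a of its group, at 87.8% of the control mean, against 80.0 and 80.4% in the other libraries.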
